A study of Mus musculus with 18 samples.

Results

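Xirp1, Tcap, Csrp3, Tnnt2, Tnni3, Actc1, Myh6 and Myl7 are 8 genes of striated muscle, the muscle of heart and skeleton, and they were followed here in mouse aorta, whose wall is made of smooth muscle. The 8 genes were chosen with earlier results of these data known, and their probe sets were taken from the array by gene symbol alone. Every probe set annotated to 1 gene only, and to 1 of these 8, was kept, which gave 10 of the 22690 probe sets. Of the 8 genes, 5 passed the filter on low values (a log2 value above 4 in at least 3 of 18 samples) and stood among the 7092 genes tested. Tnni3, Csrp3 and Myl7 did not pass and are described without a test.

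The samples were pools of 3 aortas from male C57Bl/6 mice. All animals, those of the vehicle groups too, had carried a pellet of spironolactone, which blocks the mineralocorticoid receptor, at 20 mg/kg/day for 5 days, so no group is free of that drug. The excised aortas were held in culture medium for 2, 4 or 8 h with aldosterone, the hormone that activates this receptor, at 100 nM, or with vehicle. Each of the 6 groups (aldosterone 2 h, vehicle 2 h, aldosterone 4 h, vehicle 4 h, aldosterone 8 h and vehicle 8 h) held 3 pools, and no uncultured aorta was analysed here, so changes over time are counted from 2 h in culture.

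The contractile unit of striated muscle, the sarcomere, runs between Z-discs. Its thin filaments of cardiac actin carry the troponin complex, which makes contraction depend on calcium, and slide along thick filaments of myosin. Smooth muscle has its own myosin and actin and no troponin, so high cardiac troponin or cardiac myosin is not typical of a vessel wall. The Z-disc proteins are also known as sensors of stretch and injury, and Xirp1 RNA is known to rise in damaged striated muscle.

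Smooth muscle genes, the defining markers of the labelled tissue, were bright: Myh11 lay between 12.4 and 14.02 on the log2 scale and Acta2 between 13.8 and 14.9 in the 18 pools. Of the skeletal muscle genes, Acta1 lay between 2.85 and 3.19 and Myh4 between 2.73 and 3.16, but Casq1, a calcium store protein of the sarcoplasmic reticulum, lay between 5.77 and 7.49. The adipocyte gene Adipoq lay between 8.75 and 11.4, and Ucp1, also on the adipocyte list, between 6.02 and 10.99. Vehicle 2 h replicate 1 stood apart over the tested genes. In this pool 12.8% of them were off by more than 1 log2 unit, up or down, from the mean of its group mates. The same share was 3.37% and 2.93% in those mates. In aldosterone 8 h replicate 3 it was 0.296%, close to its mates at 0.268% and 0.24%. That pool differed in few genes. Of 12393 genes taken without the filter, 14 lay more than 1 log2 unit above the mean of its mates, but 4 of them were Myh6, Myl7, Actc1 and Tnnt2.

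RefSeq promoter windows (GRCm38.p6, 250 bases before to 50 after the annotated start) were held for 6 of the 8 genes. Tcap and Xirp1 were not in the table. The windows of the 3 members that stood highest over their group mates in 1 pool and have a single such window are shown. Capitals mark CArG boxes, the sequence bound by serum response factor, and TATAAA, the core of a TATA box, found on either strand.
Actc1, chr2:114052826-114053125, minus strand: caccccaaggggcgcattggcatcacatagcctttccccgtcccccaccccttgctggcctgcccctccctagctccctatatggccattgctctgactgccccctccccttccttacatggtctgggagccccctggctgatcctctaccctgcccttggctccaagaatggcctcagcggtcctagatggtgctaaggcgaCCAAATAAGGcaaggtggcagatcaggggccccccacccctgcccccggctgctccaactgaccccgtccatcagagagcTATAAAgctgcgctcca
Myh6, chr14:54966558-54966857, minus strand: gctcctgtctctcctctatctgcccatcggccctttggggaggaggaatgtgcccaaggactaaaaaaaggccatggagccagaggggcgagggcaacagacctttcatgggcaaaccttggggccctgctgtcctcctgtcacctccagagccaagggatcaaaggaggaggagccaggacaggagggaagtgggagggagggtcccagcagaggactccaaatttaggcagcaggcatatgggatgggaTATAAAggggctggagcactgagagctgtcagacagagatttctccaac
Myl7, chr11:5898733-5899032, minus strand: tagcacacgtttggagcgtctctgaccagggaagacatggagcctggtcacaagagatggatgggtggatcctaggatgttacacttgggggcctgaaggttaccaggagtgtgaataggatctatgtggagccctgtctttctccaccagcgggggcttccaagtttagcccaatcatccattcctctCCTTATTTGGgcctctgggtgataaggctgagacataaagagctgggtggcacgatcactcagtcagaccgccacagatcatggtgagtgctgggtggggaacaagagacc

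A CArG box was present in the windows of Actc1 and Myl7, and not in those of Myh6, Tnnt2, Tnni3 and Csrp3. TATAAA was present in the windows of Actc1, at bases 34 to 39 after the annotated start, and of Myh6, at bases 2 to 7 after it. Both matches lie after the annotated start, so neither is taken here as a TATA box of that start. Among 32851 windows of the same length, 1.63% held a CArG box, 13.6% held TATAAA, 3.19% held the MEF2 motif and 72.3% held CANNTG, the short motif of MyoD-type factors. No member's window held the MEF2 motif and each held CANNTG, in places that did not overlap the other motifs. These matches describe letters only. Tnnt2, which stood high in the same pool, had neither a CArG box nor TATAAA in its windows.

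Over the hours in culture Xirp1 and Tcap, both on the list of Z-disc and muscle stress genes, fell steeply in both arms, and at different times. Xirp1 did not pass the test at 4 h and lay more than 25-fold lower at 8 h than at 2 h, whereas Tcap was already lower at 4 h and fell again by 8 h. Tnnt2, Actc1 and Myh6 did not pass the test in any comparison of times or of hormone in the model reported here, though Tnnt2 and Actc1 passed for vehicle 8 h against 2 h under some alternative settings. None of the 5 tested genes passed the test for aldosterone against vehicle.

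Xirp1, which encodes the actin-binding protein Xin, gave a bright signal early in culture. At 2 h its log2 values were 8.97, 8.95 and 9.46 in aldosterone pools, against 9.78, 9.30 and 9.30 in vehicle pools. At 4 h they were 9.48, 9.63 and 8.97 in aldosterone pools, against 8.82, 9.55 and 9.22 in vehicle pools. At 8 h they were 4.14, 4.17 and 5.12 in aldosterone pools, against 4.09, 3.99 and 4.13 in vehicle pools. All 12 pools of 2 and 4 h lay above all 6 pools of 8 h, and the 4 groups of 2 and 4 h overlapped one another in the order of their means. The 8 h level was close to the array median, which lay between 4.01 and 4.42, so the folds below rest on a dim value.

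The limma model of the 6 groups gave a difference in Xirp1 of -4.65 ± 0.26 (SE, 3 pools a group) for 8 h against 2 h in aldosterone pools, which is 25.1-fold lower (adjusted p = 1.63e-10). In vehicle pools the same difference was -5.39 ± 0.26, or 42.1-fold lower (adjusted p = 2.36e-11), and -5.23 without vehicle 2 h replicate 1. Most of it arose after 4 h: 8 h against 4 h gave -4.88 in aldosterone pools (adjusted p = 1.79e-09) and -5.13 in vehicle pools (adjusted p = 8.34e-10). The step to 4 h from 2 h did not pass the test in either arm, at 0.24 in aldosterone pools (adjusted p = 0.514) and -0.27 in vehicle pools (adjusted p = 0.435). Among the 7092 genes, the fall of Xirp1 after 4 h was the second largest in each arm. Xirp1 was chosen with earlier results of these data known, so this place is a description only. In bulk tissue, fewer cells of a type and less RNA per cell cannot be told apart.

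Tcap encodes telethonin, which caps the end of titin at the Z-disc. At 2 h its log2 values were 6.41, 7.04 and 6.62 in aldosterone pools, against 7.70, 8.11 and 7.58 in vehicle pools. At 4 h they were 3.51, 5.23 and 4.92 in aldosterone pools, against 4.01, 5.03 and 4.81 in vehicle pools. At 8 h they were 3.09, 2.52 and 3.74 in aldosterone pools, against 3.09, 2.21 and 2.59 in vehicle pools. The 2 h pools lay above all later pools, and at 2 h the aldosterone pools all lay below the vehicle pools. At 4 h and at 8 h the arms overlapped.

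By 4 h Tcap was 4.40-fold lower than at 2 h in aldosterone pools, a difference of -2.14 ± 0.40 (adjusted p = 0.000536), and 9.07-fold lower in vehicle pools, at -3.18 ± 0.40 (adjusted p = 1.24e-05). From there it fell again in both arms. Since every 8 h pool lay at or under 4, where folds of dim genes are imprecise, the folds at 8 h are lower bounds set at that level. At 8 h Tcap was at least 6.46-fold lower than at 2 h in aldosterone pools (adjusted p = 7.64e-07) and at least 13.9-fold lower in vehicle pools (adjusted p = 8.44e-09). Against 4 h, its group mean was at least 1.47-fold lower in aldosterone pools (adjusted p = 0.00895) and at least 1.53-fold lower in vehicle pools (adjusted p = 0.000839). The p-values belong to the differences without the bound. In aldosterone pools the times overlapped: 4 h replicate 1, at 3.51, lay under 4 and below 8 h replicate 3, at 3.74. The call for 8 h against 4 h in aldosterone pools was lost without aldosterone 4 h replicate 2 (adjusted p = 0.0577) or without aldosterone 8 h replicate 2 (adjusted p = 0.0545).

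These counts stand against a transcriptome that moved widely in culture. Of the 5 tested genes, 2 were called lower at 8 h than at 2 h in aldosterone pools, where 56.5% of all tested genes were called and 27.3% were called lower. The same 2 were called lower in vehicle pools, where 58.5% of all tested genes were called and 31.9% were called lower. For 4 h against 2 h, 1 of 5 was called lower in aldosterone pools, where 38.6% of all tested genes were called and 21.3% were called lower. It was also 1 of 5 in vehicle pools, where 40.2% were called and 25.6% were called lower. For 8 h against 4 h it was 2 of 5 in aldosterone pools, where 37.5% of all tested genes were called and 16.6% were called lower. It was 2 of 5 in vehicle pools too, where 37.7% were called and 17% were called lower. With 5 genes, a count of 1 or 2 cannot be set apart from those shares. In size the falls of Xirp1 and Tcap stood near the top of the 7092 genes. The members were chosen with earlier results of these data known, so these places describe and are no test. Xirp1 had place 9 by fall at 8 h against 2 h in aldosterone pools and place 3 in vehicle pools, and Tcap had place 24 by fall at 4 h against 2 h in aldosterone pools and place 6 in vehicle pools. At 8 h against 2 h Tnnt2, Actc1 and Myh6 had places 4703, 3973 and 5889 by fall in aldosterone pools. In vehicle pools these were 1560, 1574 and 2023.

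**Figure D1:**
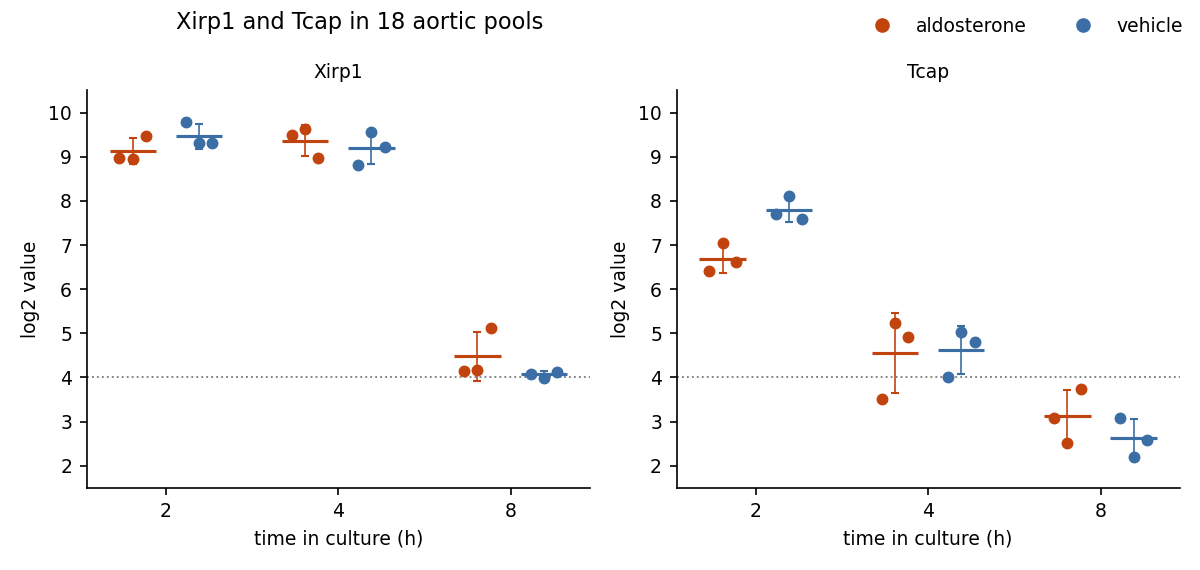
Log2 values of Xirp1 and Tcap (y axis) in the 18 pools by time in culture (x axis, h), with 1 point a pool, aldosterone left of vehicle, the bar at the group mean and whiskers of 1 SD (n = 3). The dotted line marks the filter level of 4. Xirp1 stays between 8.82 and 9.78 at 2 and 4 h and lies at 5.12 or below at 8 h, while Tcap is already lower at 4 h.

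Csrp3, another member on the list of Z-disc and muscle stress genes, encodes a LIM-domain protein of muscle known as MLP. It lay between 2.92 and 3.19 in all 18 pools, below the filter. Its aldosterone 8 h pools overlapped its vehicle 8 h pools.

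Other Z-disc and muscle stress genes fell with Xirp1 and Tcap in part. Apart from the 8 genes, 27 were listed and 16 tested. Of those, 9 were lower and 1 higher at 8 h than at 2 h in aldosterone pools, where 27.3% of all tested genes were called lower. The median difference was -0.88 against 0.02 for all tested genes. In vehicle pools 9 were lower and 1 higher, where 31.9% of all tested genes were called lower. The median there was -0.79 against -0.07 for all tested genes. Pdlim3, which binds alpha-actinin at the Z-disc, fell by 4.13 in aldosterone pools (adjusted p = 4.82e-09) and by 4.06 in vehicle pools (adjusted p = 5.04e-09). Ldb3, another Z-disc adaptor, fell by 2.32 in aldosterone pools and by 2.57 in vehicle pools. Myoz2, a calcineurin-binding Z-disc protein, fell by 2.82 in aldosterone pools and was at least 6.58-fold lower in vehicle pools. Bag3, a co-chaperone that handles damaged filamin, fell by 1.84 in aldosterone pools and by 2.07 in vehicle pools. The 1 gene that rose was Cryab, a small heat shock protein, named here after its values were seen, at 1.11 in aldosterone pools and 1.505 in vehicle pools.

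Most genes of the smooth muscle list were lower too. Across all tested genes, 27.3% were called lower at 8 h than at 2 h in aldosterone pools and 31.9% in vehicle pools, with medians of 0.02 and -0.07. Of 18 tested genes, 15 were lower and 0 higher in aldosterone pools (median -1.03), and 13 were lower and 1 higher in vehicle pools (median -0.81). Cnn1, a smooth muscle calponin, fell by 2.43 in aldosterone pools and by 1.88 in vehicle pools. Of 21 tested targets of serum response factor, 17 were lower and 0 higher in aldosterone pools (median -0.73), and 16 were lower and 1 higher in vehicle pools (median -0.78). Srf, Acta2, Tagln, Cnn1, Tpm1 and Myl9 are on both of these lists. Fhl2 is on the Z-disc and the serum response factor lists, and Myom1 on the Z-disc and the cardiac lists. The counts of these lists thus share genes. Of 10 tested cardiac list genes other than members, 4 were lower and 1 higher in aldosterone pools (median -0.55), and 3 were lower and 0 higher in vehicle pools (median -0.69). With 10 genes, these cardiac counts cannot be set apart from the shares of all tested genes. Ryr2, the calcium release channel of the heart, fell by 2.02 in aldosterone pools and by 2.67 in vehicle pools. Of the 23 fast and 8 slow skeletal muscle genes listed, 2 and 3 were bright enough to test. Srf itself fell by 1.75 in aldosterone pools and by 1.41 in vehicle pools, and its coactivator Myocd fell by 1.77 in aldosterone pools and by 1.74 in vehicle pools. Adipocyte markers moved too: the summed linear level of 12 of them ran from 15838 to 18839 in aldosterone 8 h pools, against 21748 to 27342 in aldosterone 2 h pools, and from 11768 to 13186 in vehicle 8 h pools, against 18824 to 30282 in vehicle 2 h pools. Of 9 tested macrophage markers, 7 were lower at 8 h than at 2 h in each arm, with a median of -2.23 in aldosterone pools and -2.18 in vehicle pools. Of 8 tested fibroblast markers, 8 were lower in aldosterone pools (median -1.29) and 7 in vehicle pools (median -1.42). The part of other cell types in the falls of Xirp1 and Tcap was not tested.

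**Figure D2:**
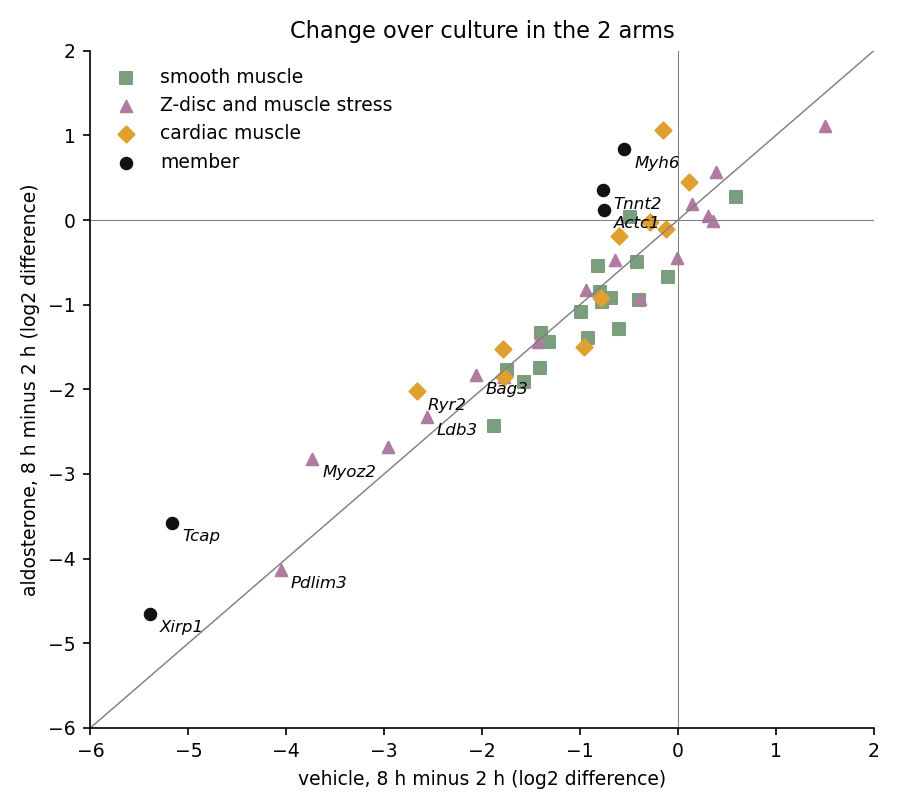
Log2 difference of 8 h against 2 h in aldosterone pools (y axis) against that in vehicle pools (x axis), with 1 point a tested gene for the 5 members and 3 marker lists, and the line of equality in grey. The arms have no sample in common here. Xirp1, at -4.65 in aldosterone pools and -5.39 in vehicle pools, lies at the low end. The 8 h pools of Tcap all lay at or under 4, so its plotted place is imprecise, while Tnnt2, Actc1 and Myh6 lie between -0.76 and 0.84.

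Across the 18 pools the genes most like Xirp1 in log2 values were Flcn (Pearson r = 0.978), Bag3 (r = 0.978) and Vasn (r = 0.977). Those most like Tcap were Atf3 (r = 0.966), Ccn1 (r = 0.964) and Tmem109 (r = 0.959). The pools share time and culture, so these values describe a common time course. Xirp1 and Tcap themselves correlated at r = 0.775, and at r = 0.353 once group means were subtracted (n = 18).

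For the tested thin filament genes, calls over time depended on the processing. Tnnt2 encodes cardiac troponin T, which anchors the troponin complex to tropomyosin. At 2 h its tested probe set read 6.01, 5.41 and 5.43 in aldosterone pools, against 6.05, 5.96 and 4.92 in vehicle pools. At 4 h it read 5.21, 5.88 and 4.82 in aldosterone pools, against 4.99, 5.16 and 5.24 in vehicle pools. At 8 h it read 5.12, 5.38 and 7.40 in aldosterone pools, against 5.11, 4.40 and 5.12 in vehicle pools. Aldosterone 8 h replicate 3 was the highest of the 18, and the other 17 lay between 4.40 and 6.05.

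The second Tnnt2 probe set gave the same high pool. It read 5.13, 5.17 and 7.09 in aldosterone 8 h pools, against 4.22, 4.56 and 4.53 in vehicle 8 h pools, and between 5.19 and 6.43 in the 12 earlier pools. For 8 h against 2 h in vehicle pools the probe sets differed: the tested one gave -0.76 ± 0.46 (adjusted p = 0.163), and the second, in a fit of every probe set without the filter, gave -1.51 ± 0.39 (adjusted p = 0.0071). The mean of both probe sets gave -1.14 (adjusted p = 0.0212). Both probe sets were thus lower in vehicle culture, and whether Tnnt2 was called depended on the probe set and on the pools in the fit. Without aldosterone 8 h replicate 3, which is not in this comparison, the tested probe set was called at the same difference (-0.76, adjusted p = 0.0472).

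Actc1 encodes cardiac alpha-actin, the actin of the thin filament in the heart. At 2 h it read 5.08, 5.19 and 5.11 in aldosterone pools, against 5.08, 5.12 and 5.57 in vehicle pools. At 4 h it read 5.01, 4.87 and 4.99 in aldosterone pools, against 5.13, 5.10 and 5.11 in vehicle pools. At 8 h it read 4.77, 4.26 and 6.71 in aldosterone pools, against 4.58, 3.81 and 5.11 in vehicle pools. Apart from aldosterone 8 h replicate 3, Actc1 never exceeded 5.57, and its difference of 8 h against 2 h was 0.12 in aldosterone pools (adjusted p = 0.833) and -0.76 in vehicle pools (adjusted p = 0.138). The vehicle difference was called with array weights, at -1.20 (adjusted p = 0.026), and without aldosterone 8 h replicate 3, at -0.76 (adjusted p = 0.0166). Tnni3, the inhibitory troponin subunit of the heart, lay between 2.17 and 2.30 in all 18 pools, aldosterone 8 h replicate 3 included.

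The thick filament genes lay at or below 4.49 in 17 of the 18 pools. Myh6 encodes the alpha heavy chain of cardiac myosin, the main motor of the adult mouse heart. Its tested probe set passed the filter through 3 pools only. At 2 h it read 3.27, 3.51 and 4.38 in aldosterone pools, against 3.91, 3.55 and 4.49 in vehicle pools. At 4 h it lay between 3.45 and 3.94 in aldosterone pools, and between 3.52 and 3.74 in vehicle pools. At 8 h it read 3.51, 3.44 and 6.72 in aldosterone pools, against 3.43, 3.35 and 3.51 in vehicle pools. The last aldosterone pool was again the highest, and the second Myh6 probe set, between 3.47 and 4.13 throughout, did not share this. Myl7, the regulatory light chain of atrial myosin, read 4.65 in aldosterone 8 h replicate 3 and between 2.36 and 2.57 in the other 17 pools.

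**Figure D3:**
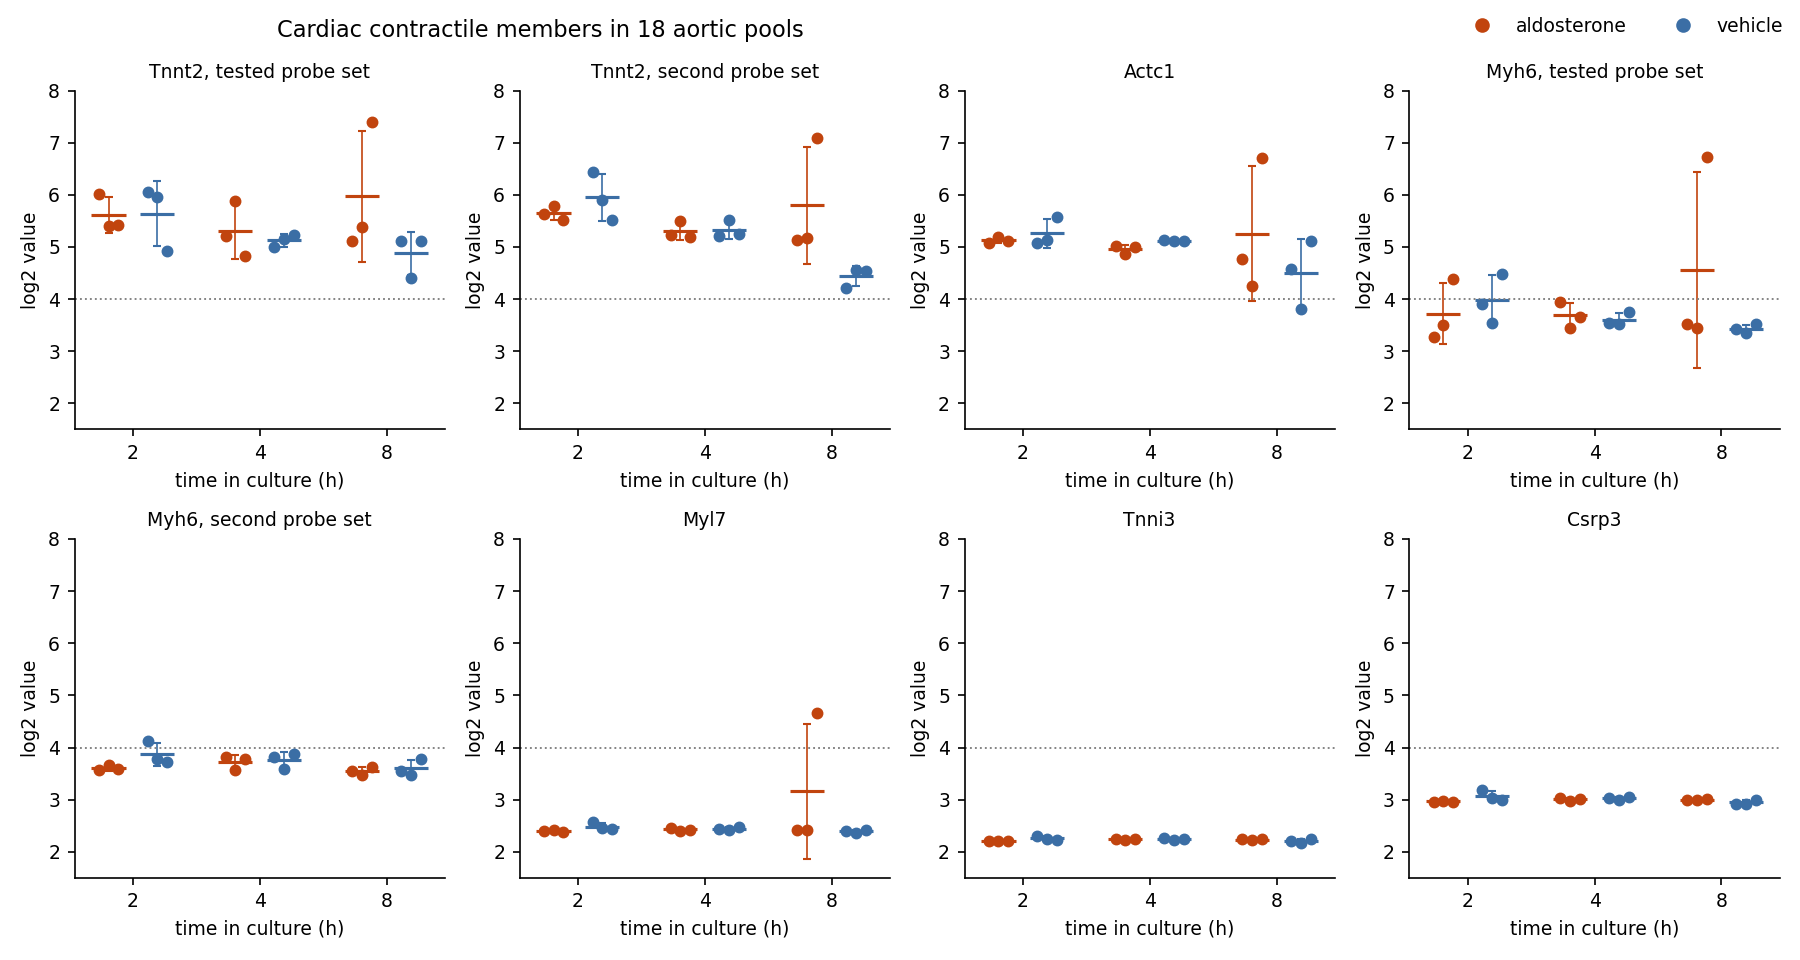
Log2 values (y axis) of the 8 probe sets of Tnnt2, Actc1, Myh6, Myl7, Tnni3 and Csrp3 in the 18 pools by time in culture (x axis, h), with 1 point a pool, aldosterone left of vehicle, the bar at the group mean and whiskers of 1 SD (n = 3). The dotted line marks the filter level of 4. Aldosterone 8 h replicate 3 lies at 7.40 for Tnnt2, 6.71 for Actc1, 6.72 for Myh6 and 4.65 for Myl7, above its group mates, but not for Tnni3 or Csrp3.

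Seen over all genes, aldosterone 8 h replicate 3 carried a small set of cardiac transcripts. Over the mean of its group mates, Myh6 was higher by 3.25, Myl7 by 2.24, Actc1 by 2.20 and Tnnt2 by 2.15. Of the other 10 genes above 1, a further 4 belonged to muscle lists. Ankrd1, a cardiac ankyrin repeat protein induced by stress, read 6.39 there, against 3.31 and 3.54 in its mates. Mb, the oxygen store myoglobin, read 4.55, against 2.36 and 2.43. Nppa, the atrial natriuretic peptide, read 3.83, against 2.46 and 2.43, and Myl4, the essential light chain of atrial myosin, read 5.44, against 4.27 and 4.32.

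Not every heart gene was above 1. The ventricular light chain Myl2 read 2.82, against 2.25 and 2.26 in its mates and at most 2.29 in any other pool. The cardiac list genes Ckmt2, at 3.18, and Ttn, at 4.08, were also highest in this pool, against at most 2.73 and 3.91 elsewhere. These are dim values. Tnnc1, Actn2, Nkx2-5 and Gata4, together with Tnni3 and Csrp3, lay within 0.1 of their mates. Counted over the 39 genes made of the cardiac list and the 8 members, 7 were above 1 in this pool, 4 of them members. Vehicle 2 h replicate 1 had 5 above 1 and 0 members, along with 7 of 12 adipocyte markers above 1. Aldosterone 4 h replicate 1 had 2 and 0 members, with 5 of 12 adipocyte markers, and aldosterone 4 h replicate 2 had 1, which was Tnnt2 at 1.01. The other 14 pools had none, and in aldosterone 8 h replicate 3 no adipocyte marker was above 1. Cox7a1 and Cox8b are on both the cardiac and the adipocyte list, so the cardiac and adipocyte counts of a pool can share genes.

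**Figure D4:**
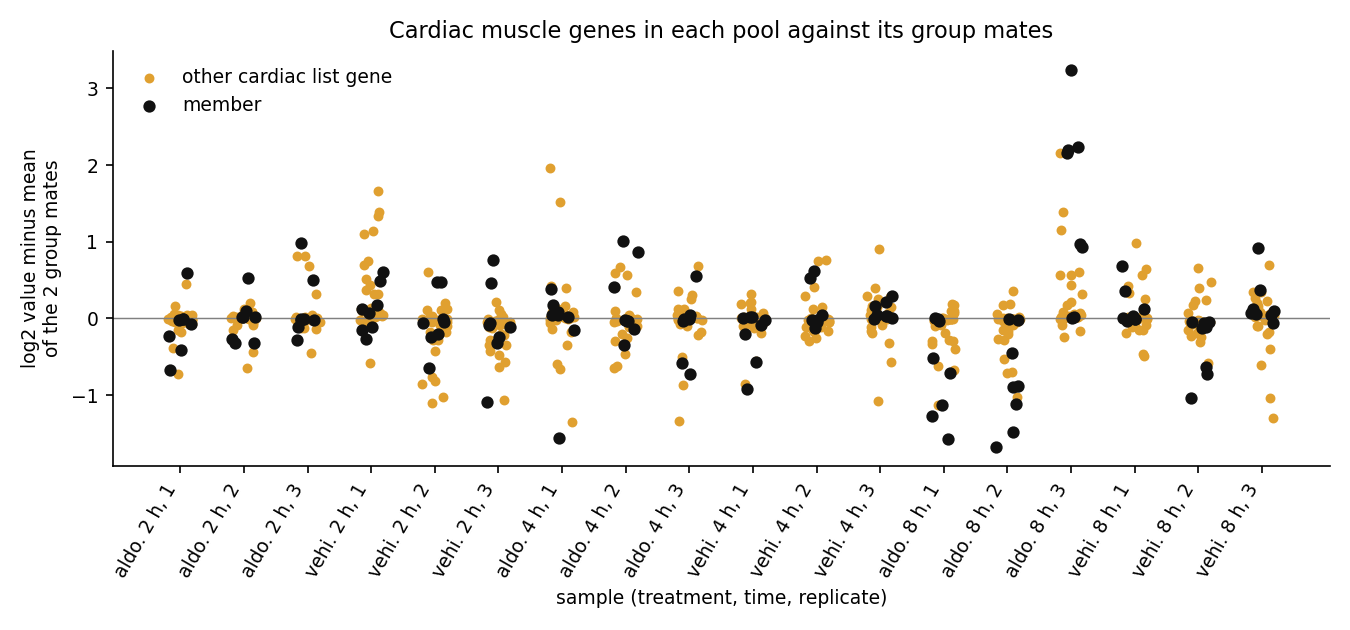
Log2 value of each gene minus the mean of its 2 group mates (y axis) in the 18 pools (x axis), for the 8 members in black and the 31 other cardiac list genes in orange, with aldosterone left of vehicle within each time and points spread sideways at random. In aldosterone 8 h replicate 3 Myh6, Myl7, Actc1 and Tnnt2 lie between 2.15 and 3.25. In vehicle 2 h replicate 1 the 5 genes above 1 are not members.

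Correlations between the cardiac members were higher with this pool than without it. Actc1 and Myh6 correlated at r = 0.815 over 18 pools and at 0.527 without it, Tnnt2 and Actc1 at 0.702 and 0.342, and Tnnt2 and Myh6 at 0.664 and -0.06. Their pairs with Xirp1 or Tcap went the other way. Xirp1 and Actc1 correlated at 0.278 with this pool and 0.703 without it, and Tcap and Tnnt2 at 0.281 and 0.598. The genes most like Actc1 were Myh6, Tnnt2 (r = 0.702) and Armc7 (r = 0.651). Those most like Tnnt2 were Dut (r = 0.753), Dera (r = 0.721) and Zfp954 (r = 0.714), and those most like Myh6 beside Actc1 were Golph3l (r = 0.799) and Dera (r = 0.777).

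The hormone comparison asked whether aldosterone alters these genes in the vessel. It called 0 of the 5 tested genes at 2 h, where 0.0705% of all tested genes were called. It called 0 at 4 h, against 0.24% of all tested genes, 0 at 8 h, against 1%, and 0 for the mean of the 3 times, against 1.1%. The test for a hormone effect that differs between times also called 0, against 0.155%. Over the alternative processing, 0 were called in each of these comparisons in 25 of 25 settings. At an unadjusted p under 0.05, Tcap at 2 h, Tnnt2 at 8 h and Tcap in the test between times came through. That threshold let through 782 of the 7092 tested genes at 2 h, 444 at 8 h and 420 in the test between times. With 5 genes, such counts cannot be set apart from those of all genes.

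Tcap at 2 h differed by -1.11 ± 0.40 (unadjusted p = 0.0129, adjusted p = 0.324, 95% interval -1.95 to -0.27), with the 3 aldosterone pools below the 3 vehicle pools. The share of all genes with arms apart in this way was not counted. Without vehicle 2 h replicate 1 the difference of Tcap at 2 h was -1.16 (adjusted p = 0.247). Over the alternatives its adjusted p ran between 0.172 and 0.581. At 8 h both arms lay at or under 4, so no difference is given there, and the test between times, which takes in those dim values, gave an unadjusted p of 0.0341 and an adjusted p of 0.78. Xirp1 at 8 h differed by 0.41 ± 0.26 (adjusted p = 1), and the lowest aldosterone pool, at 4.14, lay just above the highest vehicle pool, at 4.13. Without aldosterone 8 h replicate 3 that difference was 0.0863.

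Tnnt2 at 8 h differed by 1.09 ± 0.46 (unadjusted p = 0.0299, adjusted p = 0.654, 95% interval 0.12 to 2.06). Its second probe set gave 1.36 ± 0.39 (unadjusted p = 0.00331, adjusted p = 0.3, in the fit of every probe set), with the 3 aldosterone pools above the 3 vehicle pools. There the mates of aldosterone 8 h replicate 3 read 5.13 and 5.17, against 4.22, 4.56 and 4.53 in vehicle pools. This probe set was not refitted without that pool, and the share of all probe sets with arms apart in this way was not counted. For the tested probe set the size of the difference rested on aldosterone 8 h replicate 3: without that pool it was 0.37. Likewise the difference of Myh6 at 8 h was 1.13 with the pool and 0.0458 without it, and that of Actc1 was 0.75 with it and 0.0138 without it. With 3 pools a group, the 95% intervals for Tnnt2, Actc1 and Myh6 at 8 h spanned more than 1 log2 unit, which limits what could be detected in these genes.

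**Figure D5:**
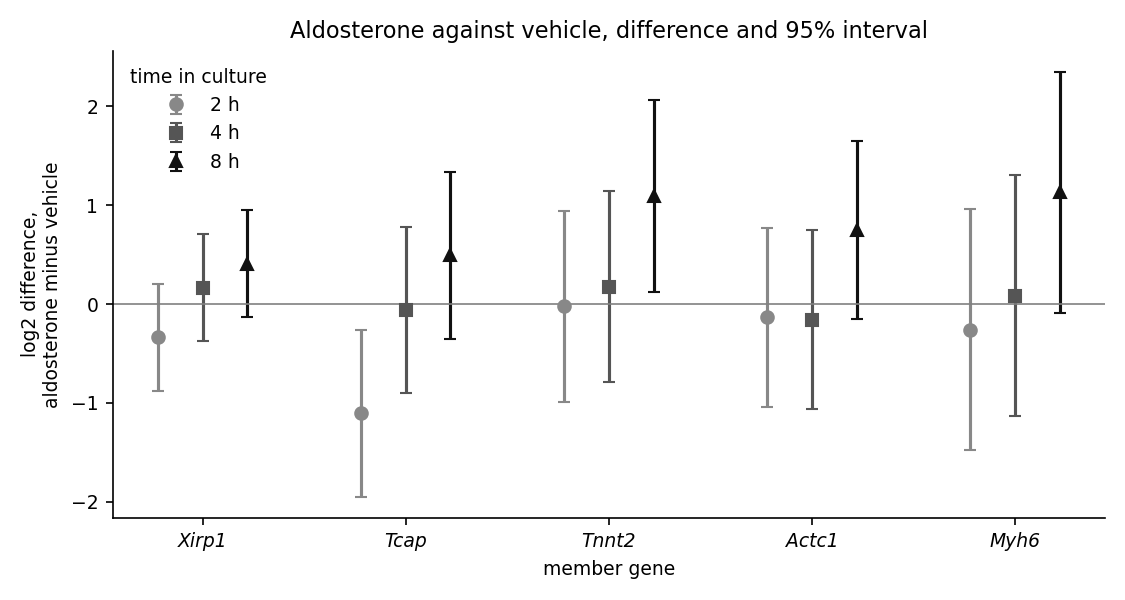
Log2 difference of aldosterone minus vehicle (y axis) for the 5 tested members (x axis) at 2, 4 and 8 h, with bars for the 95% interval of the limma model, not adjusted for the number of genes. The intervals of Tcap at 2 h (-1.95 to -0.27) and of Tnnt2 at 8 h (0.12 to 2.06) lie off 0, and neither passed the adjusted test. At 8 h Tcap was at or under 4 in both arms.

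Of 10 tested cardiac list genes other than members, 1 was called for the mean of times, against 1.1% of all tested genes. This was Hspb7, a small heat shock protein of heart and muscle, which was 1.67-fold higher with aldosterone (difference 0.74 ± 0.10, adjusted p = 0.000339). Its 8 h values were 10.4, 10.6 and 10.4 in aldosterone pools, against 9.43, 9.27 and 8.74 in vehicle pools, so all 3 aldosterone pools were higher. In aldosterone 8 h replicate 3 Hspb7 was thus at the level of its mates, unlike Myh6, Myl7, Actc1 and Tnnt2. Of 16 tested Z-disc and muscle stress genes and 18 tested smooth muscle genes, 0 were called for the mean of times.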

How the data were processed

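Each of 18 aortic RNA pools was hybridised to a 1-colour Affymetrix array. The authors deposited log2 values from GCRMA, per the submitters' processing notes, and the sources used here state neither its settings nor a genome build. Probe sets were named from the platform annotation, and 20351 of 20380 probe sets with 1 gene matched a RefSeq gene. A gene past the filter was tested on its probe set of highest mean. A cell-means model of 6 groups was fitted to 7092 genes with limma 3.58.1 in R 4.3.3 (trended prior, 12 residual degrees of freedom), with Benjamini-Hochberg adjustment across all of them and a threshold of 0.05. The fit was tested on simulated data. A fold against a group with every pool at or under 4 is given as a bound from that level. Precision is limited by 3 arrays a group. Alternatives were no intensity trend, no filter, every probe set, averaged probe sets, renewed quantile normalization, array weights, a replicate block and each pool left out. Named genes were all members, the 3 most correlated with each tested member by value and by deviation from group means, and list genes with the smallest p-values. Members, lists and tests were chosen with earlier results of these data known.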

Additional observations from a re-analysis of the deposited data

Results flagged for a closer look

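The measurements outside the tested probe sets that exceeded every vehicle pool all came from aldosterone 8 h replicate 3. A probe set annotated to both Myh7 and Myh6, the cardiac myosin heavy chains, which was left out because it names more than 1 gene, read 3.57 there, against 2.05 in the highest vehicle pool. A second probe set annotated to both genes did not share this and read 2.72 in that pool, against 2.87 in the highest vehicle pool. The untested Myl7 probe set read 4.65, against 2.57. The second Tnnt2 probe set read 7.09, against 6.43 in the highest vehicle pool, a 2 h pool. Each is a single pool, and no test of a single outlying sample was run on groups of 3 pools.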

How the results depend on the processing

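The 4 falls of Xirp1 to 8 h and those of Tcap to 4 h in both arms, and of Tcap to 8 h against 2 h, were called in 25 of 25 settings. The count of members past the threshold ran between 1 and 2 for aldosterone 8 h against 4 h with a pool left out (1 without aldosterone 4 h replicate 2 or aldosterone 8 h replicate 2) and between 2 and 4 for vehicle 8 h against 2 h (4 without aldosterone 8 h replicate 3, which added Actc1 at -0.76, adjusted p = 0.0166, and Tnnt2 at -0.76, adjusted p = 0.0472, through a smaller shared spread). For the same comparison Tnnt2 was also called with averaged probe sets (-1.14, adjusted p = 0.0212) and Actc1 with array weights (-1.20, adjusted p = 0.026). None of the values that turned sign had been called, and the cause was not tested. Under quantile normalization again, Tnnt2 with hormone at 2 h gave 0.0659 and Myl1 for the mean of times 0.0202. Under array weights, Tnnt2 with hormone at 2 h gave 0.39, Tcap with hormone at 4 h 0.25, Casq1 for the mean of times 0.0339, and Actc1 -0.0936 for aldosterone 8 h against 4 h and -0.26 for aldosterone 8 h against 2 h. With single pools left out, hormone differences ran at 2 h from -0.39 to 0.18 for Tnnt2 and -0.22 to 0.0213 for Actc1; at 4 h from -0.11 to 0.42 for Tnnt2, -0.0436 to 0.20 for Myh6, -0.0244 to 0.36 for Xirp1 and -0.40 to 0.46 for Tcap; and for the mean of times from -0.0927 to 0.32 for Actc1, -0.0436 to 0.50 for Myh6, -0.0284 to 0.14 for Xirp1, -0.0823 to 0.0119 for Myl1 and -0.11 to 0.0535 for Casq1. Differences over time ran from -0.23 to 0.0124 for Actc1 in vehicle 4 h against 2 h and -0.25 to 0.30 for Myh6 in aldosterone 4 h against 2 h. For aldosterone 8 h against 4 h they ran from -0.44 to 0.79 for Actc1, -0.21 to 1.43 for Myh6 and -0.0545 to 1.09 for Tnnt2, and for aldosterone 8 h against 2 h from -0.61 to 0.62 for Actc1, -0.24 to 1.40 for Myh6 and -0.37 to 0.77 for Tnnt2. All genes called for hormone numbered 5 at 2 h (1 to 29 with a pool left out, 5 to 54 otherwise), 17 at 4 h (5 to 32, 9 to 42), 71 at 8 h (33 to 111, 57 to 222), 78 for the mean (53 to 146, 61 to 260) and 11 between times (9 to 15, 9 to 29). For vehicle 8 h against 2 h, 4150 became at most 6329. The labels do not say whether shared replicate numbers pair the pools. In their deviations, 6 of 45 same-number pairs correlated above 0.1 (range -0.19 to 0.28), and 7 of 18 pools correlated best with their own number. With 3 pools a group this check neither shows nor excludes a pairing. With a replicate block, 2 members were called for 8 h against 2 h in each arm, 0 for hormone, and 67 of all genes for hormone at 8 h. Depth does not apply to arrays, and the 3 untested members lay near the bottom of the scale.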

Other observations

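Once group means were subtracted, the genes most like Xirp1 across the 18 pools were Hbegf (r = 0.839), Slpi (r = 0.836) and Ppp1r15a (r = 0.825). Those most like Tcap were Trir (r = 0.839), Snrpg (r = 0.827) and Lamb2 (r = 0.802). These rank the strongest of 7092 correlations and carry no test. Of the 14 genes above 1 in aldosterone 8 h replicate 3, the 6 on no muscle list were Kcnj15, Spryd4, Fkbp11, Mus81, Galk2 and Rfxank, named after their values were seen, with excesses of 1.18, 1.13, 1.10, 1.08, 1.03 and 1.03 in that order.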
